A study of Mus musculus with 3 samples.

Results

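The loci of 10 genes of Notch signalling and of the intestinal secretory lineages were examined for open chromatin in fetal mouse gut epithelium with and without the HNF4 factors. The genes are the Notch ligand Dll1, the receptor Notch1 and the target Hes1, the transcription factors Atoh1, Neurog3, Spdef and Gfi1, and the secretory cell products Muc2, Tff3 and Chga. They were chosen by name, and every ATAC-seq peak overlapping a gene body or the 50 kb on either side of it was taken. The peaks are on the mouse build mm9 and the gene table at hand is on GRCm38, so each gene was moved by the offset that put the most peaks on start sites over the surrounding 5 Mb. Peaks of the 3 libraries that overlapped by at least 1 bp were merged, which gave 37 regions in the 10 windows, of 33564 regions in the whole series. Of the 37 regions, 16 held a peak in the control library, and 18 and 32 held one in replicates 1 and 2 of the double knockout (DKO), called DKO 1 and DKO 2 from here on. These are 43.2%, 48.6% and 86.5% of the member regions, beside 50.6%, 54.4% and 79.4% of all regions.

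ATAC-seq marks open chromatin by the insertion of sequencing adapters with the Tn5 transposase, and the study used it to find accessibility that depends on HNF4. Small intestines were taken from mouse embryos at E16.5, epithelial cells were captured on magnetic beads against EpCAM, and 20000 cells went into each library, sequenced as single-end reads of 75 bp. The control group is 1 library of genotype Hnf4gCrispr/+, that is, with 1 altered and 1 normal copy of Hnf4g. The DKO group is 2 libraries of genotype Shh-Cre; Hnf4af/f; Hnf4gCrispr/Crispr, in which Cre is expressed from the Sonic hedgehog locus, which is active in the gut epithelium and in other embryonic epithelia, and acts on floxed Hnf4a, while both copies of Hnf4g carry the CRISPR allele. All 3 libraries therefore carry at least 1 Hnf4gCrispr allele, and the control's label names neither Cre nor floxed Hnf4a. The labels do not say whether a library came from 1 embryo or several.

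Notch signalling passes between neighbouring cells: a ligand such as DLL1 on one cell triggers cleavage of a receptor such as NOTCH1 on the next, and the released receptor fragment joins RBPJ in the nucleus and switches on genes such as Hes1. HES1 is a repressor of Atoh1, the factor that commits an intestinal progenitor to a secretory fate, so cells with Notch activity become absorptive enterocytes and cells that escape it become goblet, Paneth, tuft or enteroendocrine cells. HNF4A and HNF4G are nuclear receptors known for their part in the enterocyte program.

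A start site fell inside a peak region, among members with a RefSeq promoter sequence at hand, at Muc2, Notch1 and one of the starts of Dll1. The 250 bases before these starts are printed 5′ to 3′ on the gene's strand, from RefSeq on GRCm38.p6, because, as the offsets place them, they lie within the start-site peaks described further on. They run from chr7:141690090-141690339 on the plus strand for Muc2, chr2:26503823-26504072 on the minus strand for Notch1 and chr17:15375824-15376073 on the minus strand for Dll1. Capitals mark a match to an E-box (CAGNTG, the letters bound by bHLH activators such as ATOH1) or to an N-box (CACNAG, a site type of HES repressors), searched on both strands.
Muc2: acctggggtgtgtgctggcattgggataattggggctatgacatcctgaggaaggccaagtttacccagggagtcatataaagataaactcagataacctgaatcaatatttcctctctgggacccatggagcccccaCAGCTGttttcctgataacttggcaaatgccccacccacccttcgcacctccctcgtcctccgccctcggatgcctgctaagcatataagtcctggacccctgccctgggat
Notch1: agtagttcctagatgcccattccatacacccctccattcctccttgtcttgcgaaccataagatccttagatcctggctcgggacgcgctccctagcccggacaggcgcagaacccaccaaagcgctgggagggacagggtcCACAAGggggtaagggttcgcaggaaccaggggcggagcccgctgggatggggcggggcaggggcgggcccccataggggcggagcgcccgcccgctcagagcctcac
Dll1: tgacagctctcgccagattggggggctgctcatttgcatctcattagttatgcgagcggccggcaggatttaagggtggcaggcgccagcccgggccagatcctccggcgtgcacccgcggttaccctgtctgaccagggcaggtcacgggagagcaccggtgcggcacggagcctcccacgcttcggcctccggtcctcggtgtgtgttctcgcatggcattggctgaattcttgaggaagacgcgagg
The Muc2 sequence holds 1 E-box, CAGCTG, from 112 to 107 bases before the start, and the Notch1 sequence holds 1 N-box, CACAAG, from 108 to 103 bases before it. The Dll1 sequence holds neither. Such matches are common: an E-box was found in 44.8% and an N-box in 36.7% of 32851 RefSeq promoters of this length. The RBPJ letters TGGGAA, found in 21.6% of all promoters, occurred in none of these 3 sequences. Among the member promoters listed, they occurred in that of Spdef, from 22 to 17 bases before the start. The HNF4 letters CAAAGTCCA, found in 0.384% of all promoters, and their part AAGTCCA, found in 3.36%, matched in no listed promoter of the 8 members with an entry. The 3 sequences differ in CpG content, with an observed to expected CpG ratio of 0.23 at Muc2, 0.59 at Notch1 and 0.82 at Dll1, beside a median of 0.37 over all promoters. No entry was listed for Hes1 or Tff3.

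The 3 peak lists were of unequal length: 16977 peaks in the control, 18268 in DKO 1 and 26648 in DKO 2, each peak a window of 601 bp with the authors' score. The sequencing depth behind the lists is unknown, so a missing peak means only that none was called. A score was therefore read as its percentile rank among all peaks of its own library, from near 0 for the weakest to 100 for the strongest. As a check of the labelled tissue, 16 of 29 cell type markers could be placed. The start of Elf3, an epithelial transcription factor, held a peak in all 3 libraries, and so did that of Cdx2, the intestinal master regulator. The start of Cldn7 held one in both DKO libraries alone, that of Krt8 in DKO 1 alone, and that of Krt18 in none. The starts of 4 blood markers (Ptprc, Cd3e, Hba-a1 and Lyz2) and 2 endothelial markers (Kdr and Tie1) held no peak in any library. Of 4 mesenchymal markers only Acta2 held one, in DKO 1. Elavl4, a neuronal marker, held one in both DKO libraries at ranks of 38.4 and 69.8 and none in the control. It was the single neuronal or glial marker placed. Its part in the results was not tested. Peaks on chromosome Y, where no member lies, numbered 2 in the control, 24 in DKO 1 and 40 in DKO 2, and the labels give no sex. The part of this difference in the results was not tested.

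With 1 control library no test of genotype was made, since an exact permutation of the 3 library labels can give no p below 0.333. The distance between the DKO replicates stands in for the replicate error in every comparison.

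Over the 10 loci, neither regions of both DKO libraries alone nor regions of the control alone took a larger share than in the series. That held at the settings used, but the order turned under several alternatives. A peak was called in all 3 libraries in 11 of the 37 regions (29.7%, beside 30.9% of all regions of the series). In 5 regions (13.5%) both DKO libraries had a peak and the control had none. Over the whole series that class held 16.0% of regions, so the members' share was near the background. In 3 regions (8.11%) the control alone had a peak, beside 13.0% of all regions. This class needs a call in 1 library and the other needs calls in 2, so their sizes are not comparable with each other. The largest class, 15 regions (40.5%, beside 27.2% of all), was called in DKO 2 alone, the longest list. Regions called in both DKO libraries alone made up 29.4% of member regions, beside 16.6% of all, at scores at or above each library's median. At that threshold the Atoh1 regions at −1.1 and +14.0 kb and the Gfi1 region at +36.1 kb entered the class. Each had a control peak, at ranks of 40.3, 17.0 and 34.8, that the threshold removed. With flanks of 10 kb the share was 30.8%, beside 16.0% of all. Control-only regions made up 15.6% with flanks of 100 kb, beside 13.0% of all. With an offset found over 2 Mb they made up 14.3%. That offset failed at Hes1 and Atoh1 (13 against 12 and 8 against 7 pairs for the next best), so this share includes misplaced windows.

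The counts turned on the replicates. Without DKO 2 only 22 regions remained in the windows. The DKO-only count was then 6, or 27.3% of regions, beside 30.6% of all. Without DKO 1 it was 20, or 55.6%, beside 46.2% of all. Of the 16 member regions called in both DKO libraries, 5 (31.2%) were missing from the control, beside 34.1% in the whole series. Of the 12 called in the control and DKO 2, 1 (8.33%) was missing from DKO 1, beside 14.7%. Of the 12 called in the control and DKO 1, 1 (8.33%) was missing from DKO 2, beside 4.29%.

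**Figure D1:**
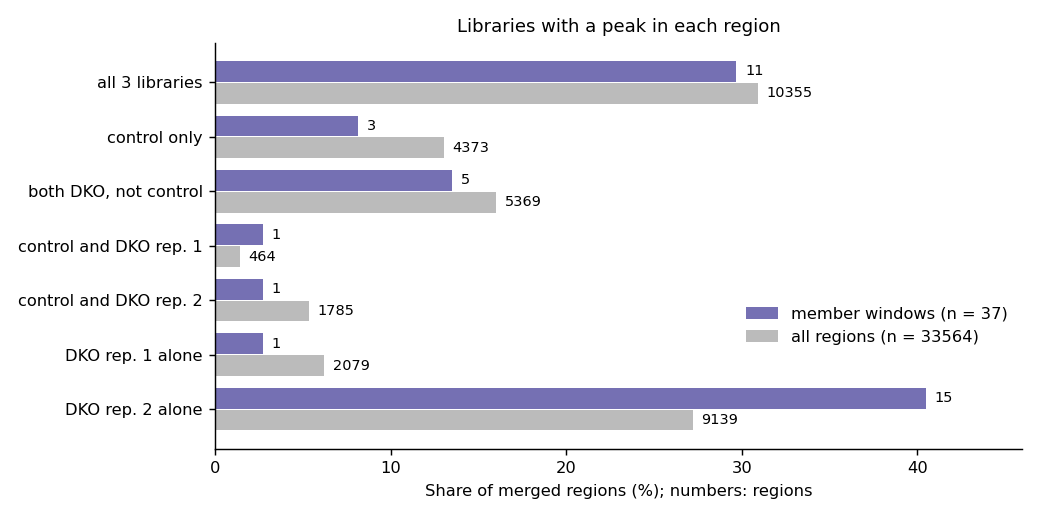
Share of merged regions (%, horizontal axis) in each class of libraries with a peak, for the 37 regions of the member windows and for all 33564 regions; numbers beside the bars count regions. Regions called in both DKO libraries and not in the control make up 13.5% of the member regions and 16.0% of all, and regions of DKO 2 alone make up 40.5% and 27.2%.

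The loci differed widely in how many regions they held. The Hes1 window held 8, the Atoh1 window 7, those of Notch1, Dll1 and Gfi1 4 each, those of Spdef and Tff3 3 each, the Muc2 window 2, and those of Neurog3 and Chga 1 each. The median over the members was 3.5, beside 3 (quartiles 2 and 5) over 15247 protein-coding genes placed in the same way. By role, the product genes had the fewest. The 3 Notch signalling genes had 16 regions, of which 8 were called in the control, 8 in DKO 1 and 15 in DKO 2. The 4 transcription factors had 15, with 8, 8 and 11 called. The 3 secretory cell products had 6, with none called in the control, 2 in DKO 1 and 6 in DKO 2. Over all regions 50.6% were called in the control, 54.4% in DKO 1 and 79.4% in DKO 2, so DKO 2 had the most calls in the series as a whole too. By position, 6 of the 37 regions lay within 1 kb of a member's own start site, 4 within 1 kb of the start of another gene only and 27 elsewhere.

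**Figure D2:**
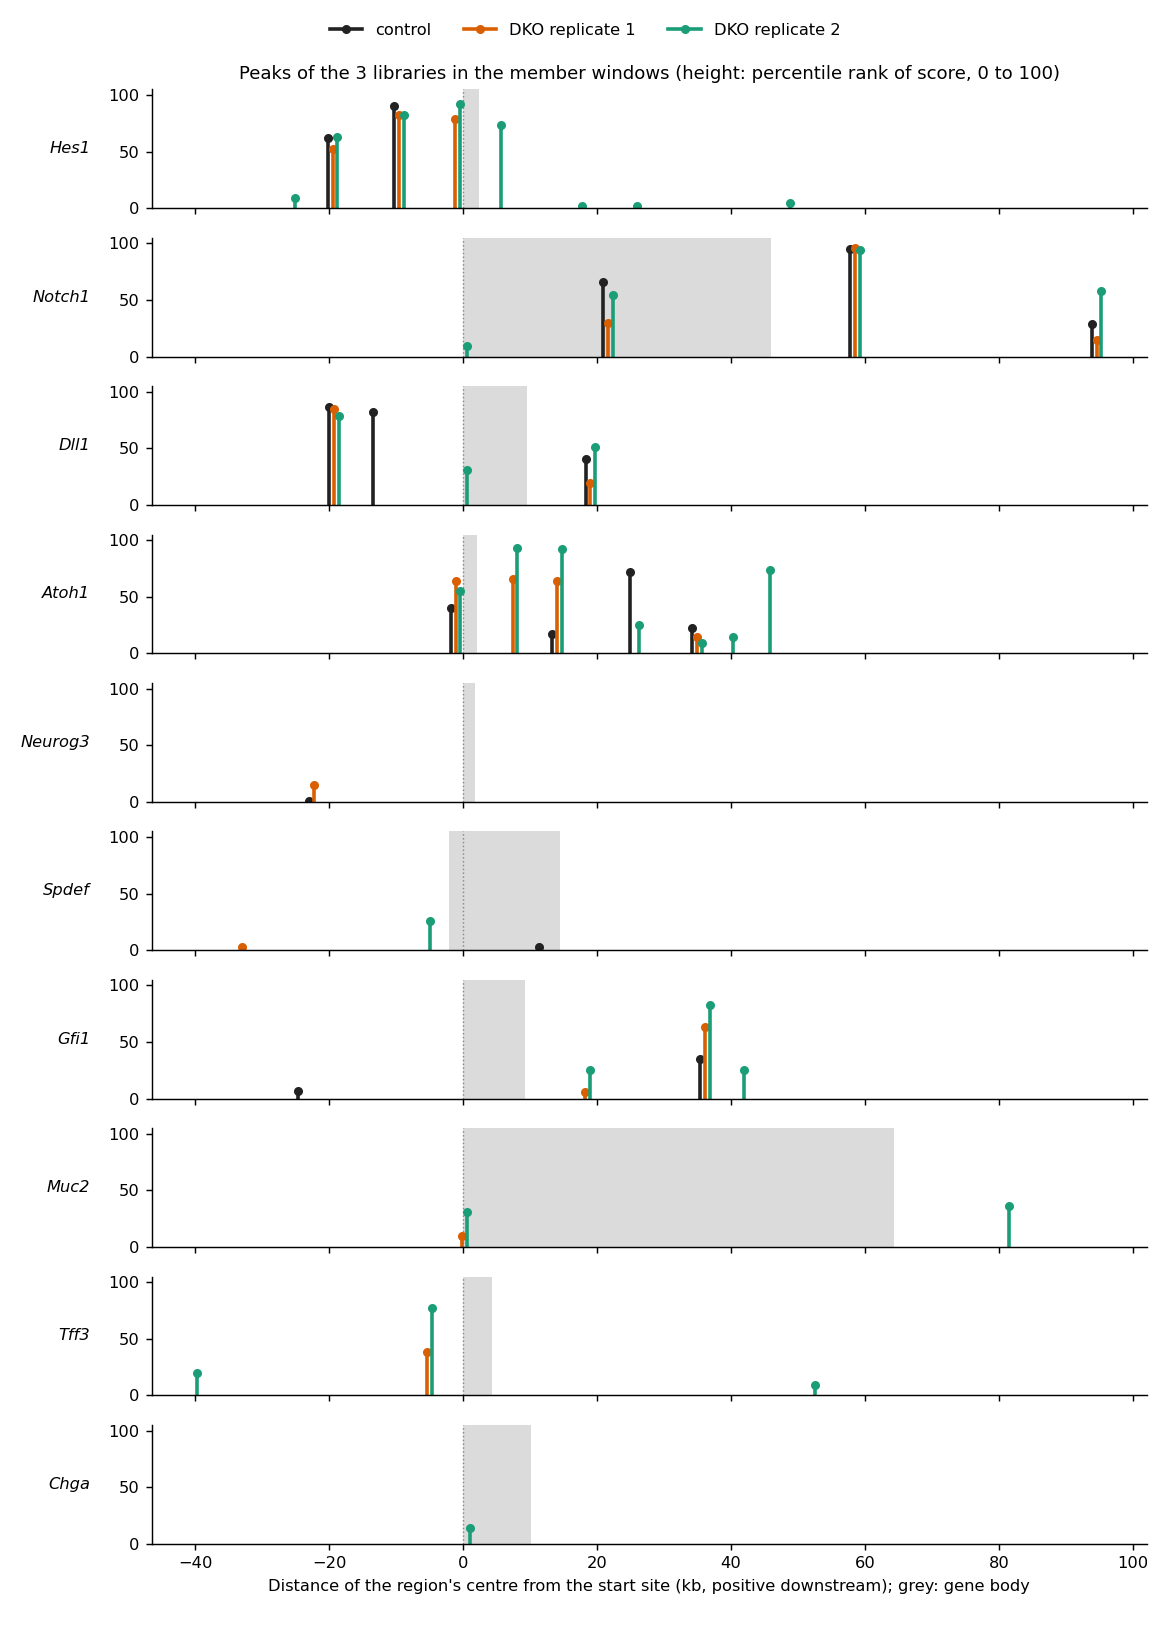
Peaks in the windows of the 10 members, by the distance of the region's centre from the gene's start site (kb, positive downstream), with the percentile rank of the score as height, grey for the gene body and 1 colour per library; the lines of the 3 libraries in 1 region are set slightly apart so that each can be seen. The windows of Muc2, Tff3 and Chga, with 2, 3 and 1 regions, hold no control peak. At Atoh1 +14.0 kb the control stands at 17.0 below both DKO libraries at 63.7 and 92.5.

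Dll1 encodes a ligand that secretory precursors present to their neighbours. Its start held a peak in DKO 2 alone, with a score of 17 and a rank of 30.8 (chr17:15512658-15513258 on mm9), on the promoter sequence printed above. At −12.7 kb, with negative distances upstream, lay a region called in the control alone, with a score of 32 and a rank of 82.4 (chr17:15526246-15526846). The nearest DKO peak was 6.6 kb away. That peak belongs to the region at −19.3 kb, which lies within 1 kb of the start of Fam120b. The ranks in that region were 87.0 in the control, 84.7 in DKO 1 and 78.4 in DKO 2. At +19.0 kb a further region had ranks of 40.3, 19.6 and 51.4 in the same order. The control value there lay between those of the DKO libraries, which were 31.8 points apart. The region at −12.7 kb was the strongest of the 3 control-only regions in the member windows. Its class rests on the single control library, and control-only regions make up 13.0% of all regions.

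Notch1 encodes the receptor. Its start held a peak in DKO 2 alone, at a score of 13 and a rank of 9.0 (chr2:26359169-26359769), again on the sequence printed above. That peak also lies within 1 kb of the start of Gm35978. Within the Notch1 gene body, at +21.6 kb (chr2:26337440-26338170), all 3 libraries had a peak, at ranks of 65.7 in the control, 29.5 in DKO 1 and 54.7 in DKO 2. The control was above both, but by 36.2 points over DKO 1 and by 11.0 over DKO 2, while the replicates were 25.2 points apart. Both other regions of the window lie within 1 kb of the starts of other genes. The one at +58.5 kb, at Sec16a and 0610009E02Rik, stood at 94.8, 96.3 and 94.2. The one at +94.6 kb, at Inpp5e, stood at 29.0, 14.4 and 57.7. No region of the Notch1 window was called in 1 genotype alone with support from both DKO libraries.

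Hes1 encodes the repressor through which Notch acts on Atoh1. Its start-site peak had the highest rank among the members in both DKO libraries and was not called in the control. A region at −1.2 kb (chr16:30063925-30064546) had a score of 37 and a rank of 78.6 in DKO 1, a score of 50 and a rank of 92.5 in DKO 2, and no control peak. Its edge lies within 1 kb of the start, the limit used for a start-site peak, but it does not cover the start. With peaks cut to their central 200 bp it fell outside that limit. The nearest control peak was 8.5 kb away, in the region at −9.6 kb (chr16:30055429-30056129). That region stood at 90.2 in the control, 82.5 in DKO 1 and 82.3 in DKO 2. A region at −19.5 kb (chr16:30045540-30046203) stood at 62.4, 52.6 and 63.0. Control and DKO libraries overlapped at −19.5 kb. At −9.6 kb the control was above both by 7.7 and 7.9 points, and the DKO replicates were 0.3 points apart. This did not reach the 25 points required to call a shift. At the median region of the series the DKO replicates differed by 10.3 points. The other 5 regions of the window were called in DKO 2 alone. They had ranks of 9.0 at −25.8 kb, 73.6 at +5.0 kb, 1.9 at both +17.0 and +25.3 kb, and 4.7 at +48.1 kb, so 4 of the 5 were among its weakest peaks.

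Atoh1, the gene of the secretory commitment factor, is the member whose offset has the smallest lead over the next best. The offset used placed 18 peaks on start sites in its surroundings, beside 12 for the next best offset, while 91 of the 91 placed genes between 5 and 10 Mb away had the same offset within 500 bp. A region at −1.1 kb (chr6:64677667-64678379) was the single start-site region of any member with a peak in all 3 libraries. It does not cover the Atoh1 start, and it also lies within 1 kb of the start of Gm35851. Its scores were 19 in the control, 29 in DKO 1 and 23 in DKO 2, at ranks of 40.3, 63.7 and 54.7. The control was below both DKO libraries, by −18.9 points against their mean, and they were 9.0 points apart. This did not reach the 25 points against each DKO library that were required to call a shift.

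Downstream of Atoh1 the differences were larger. At +7.4 kb (chr6:64686235-64686842) both DKO libraries had a peak, with scores of 30 and 51 and ranks of 66.0 and 93.0, and the control had none within 6.6 kb. At +14.0 kb (chr6:64692824-64693508) the score was 15 in the control, 29 in DKO 1 and 50 in DKO 2, at ranks of 17.0, 63.7 and 92.5. The control minus DKO difference there was −46.7 and −75.6 points, with a mean of −61.1, and the DKO replicates were 28.9 points apart. Both differences exceed that distance, which does not measure the error of the single control library. The region is named because it met the rule of 25 points, as did 12.3% of all regions called in all 3 libraries. The region at +25.6 kb (chr6:64704406-64705123) went the other way, with a rank of 71.6 in the control, 25.4 in DKO 2 and no peak in DKO 1. At +34.9 kb (chr6:64713723-64714414) all 3 libraries were low, at 22.8, 14.4 and 9.0. DKO 2 alone had peaks at +39.6 kb, at a rank of 14.2, and at +45.1 kb, at 73.6. The Atoh1 window thus held a region called in the DKO libraries alone at +7.4 kb, one that ranked higher in both of them at +14.0 kb, and one that ranked higher in the control than in DKO 2 at +25.6 kb.

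Gfi1, a factor that acts after Atoh1 and keeps goblet and Paneth cells from the endocrine fate, had no start-site peak in any library. Its offset placed 133 peaks on start sites, beside 28 for the next best, and 23 of the 84 placed genes between 5 and 10 Mb away had the same offset within 500 bp. Its window held the other member region with a shifted rank. At +36.1 kb (chr5:108116848-108117473) the score was 18 in the control, 29 in DKO 1 and 37 in DKO 2, at ranks of 34.8, 63.7 and 82.3. The difference was −28.9 and −47.5 points, with a mean of −38.2, and the DKO replicates were 18.6 points apart. Both differences exceed that distance, but the region was again named by the rule that 12.3% of all such regions met. A region at +18.2 kb (chr5:108134815-108135429) was called in both DKO libraries alone but weakly, with scores of 14 and 16 and ranks of 5.6 and 25.4. A region at −24.0 kb (chr5:108178498-108179098) was called in the control alone, also weakly, with a score of 13 and a rank of 6.5. The nearest DKO peak was 43.7 kb away. DKO 2 alone had a peak at +41.3 kb, at a rank of 25.4.

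Neurog3, which starts the enteroendocrine program, and Spdef, which drives goblet and Paneth cell maturation, had no start-site peak in any library. The window of Neurog3 held 1 region, at −22.3 kb and within 1 kb of the start of Fam241b (chr10:61573077-61574028). Its ranks were 0.9 in the control and 14.4 in DKO 1, with no peak in DKO 2. The window of Spdef held 3 regions, each called in 1 library. The control had a peak in the gene body at +12.0 kb with a score of 12 and a rank of 3.0 (chr17:27853571-27854171). DKO 2 had one at −5.6 kb with a rank of 25.4, and DKO 1 had one at −33.1 kb with a rank of 2.6. All peaks in these windows were in the lower part of their lists, and none was shared by both DKO libraries.

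The 3 secretory cell products were the members without any control peak. Their windows held 6 regions together, 4 of them called in DKO 2 alone, while 50.6% of all regions were called in the control. How many of all placed genes have a window without a control peak was not counted. Muc2 encodes the main gel-forming mucin of goblet cells. Its offset rests on 171 peaks at start sites, beside 35 for the next best, but 0 of the 15 placed genes between 5 and 10 Mb away shared it. Its start (chr7:148875656-148876407, the promoter printed above) held a peak in both DKO libraries, with scores of 15 and 17 and ranks of 9.7 and 30.8, and the nearest control peak was 51.1 kb away. DKO 2 alone had another peak at +80.8 kb, at a rank of 35.8. Tff3 encodes the trefoil peptide that goblet cells secrete with the mucin. Its window held a region at −5.4 kb (chr17:31271565-31272359) with scores of 21 and 33 and ranks of 38.4 and 76.9 in DKO 1 and DKO 2. The nearest control peak was 61.6 kb away. Its other regions, at −40.4 and +51.8 kb, were called in DKO 2 alone at ranks of 19.8 and 9.0.

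Chga encodes chromogranin A, a protein of endocrine secretory granules. Its window held 1 region, at +0.3 kb (chr12:103793134-103793734), called in DKO 2 alone with a score of 14 and a rank of 14.2. The nearest control peak was 53.0 kb away. Apart from the Tff3 region at −5.4 kb, the peaks at the product genes had ranks of at most 35.8, so most were among the weaker calls of their libraries. At 16977 top-scoring peaks per library, the length of the control list, the Tff3 region was still called in both DKO libraries and not in the control, and so were the regions of Hes1 at −1.2 kb and Atoh1 at +7.4 kb. The Muc2 start was then called in DKO 1 alone, and the Gfi1 region at +18.2 kb was not called. The 3 control-only regions kept their class.

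At regions with a peak in all 3 libraries, ranks could be compared directly. Of the 11 such member regions, 2 had a control rank at least 25 points below both DKO libraries, Atoh1 at +14.0 kb and Gfi1 at +36.1 kb, and 0 had one at least 25 points above both. Over 10355 such regions of the series, 12.3% were lower in the control by this rule and 2.63% were higher. Without DKO 1 the lower count was 3 among the members, with Notch1 at +94.6 kb added, beside 22.5% of all. At equal list length it was 2, beside 7.95% of all. The median control minus DKO difference was 4.5 points over the members and −5.0 over all regions, and 5 of the 11 members (45.5%) were below zero, beside 64.4% of all. The members' median and their mean, −6.2 points, differ in sign, and the 2 shifted regions have the lowest values. The DKO replicates differed by a median of 10.4 points at the member regions and 10.3 at all regions. With 1 DKO library left out, the count of regions ranked higher in the control became 1. It was the Atoh1 region at +25.6 kb without DKO 1, and the Notch1 region at +21.6 kb without DKO 2.

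**Figure D3:**
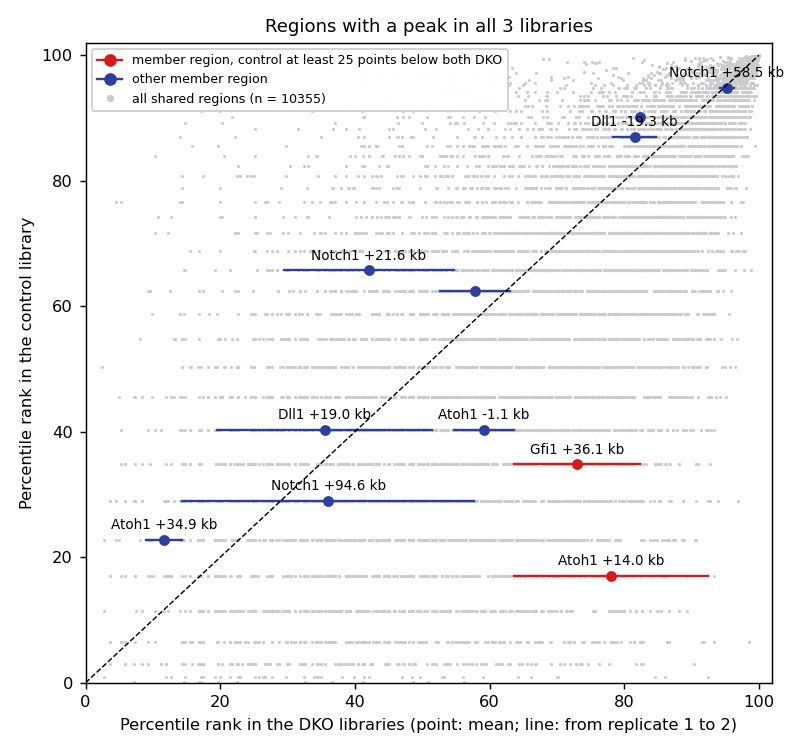
Percentile rank in the control (vertical axis) against the DKO libraries (horizontal axis; point, mean of the replicates; line, from one replicate to the other) at the 11 member regions called in all 3 libraries, over all 10355 such regions in grey. The whole replicate lines of Atoh1 +14.0 kb and Gfi1 +36.1 kb lie to the right of the dashed line of equal rank, at −46.7 and −28.9 points or further from the control.

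Start-site peaks were fewest in the control and most numerous in DKO 2, among the members as among all genes. A peak lay within 1 kb of the start of 1 of 10 members in the control (10.0%, beside 43.9% of 15247 placed genes), 3 in DKO 1 (30.0%, beside 50.1%) and 6 in DKO 2 (60.0%, beside 51.9%). Hes1 and Muc2 had one in both DKO libraries and not in the control, 2 of 10, beside 7.18% of all placed genes. No member had one in the control alone, beside 1.46%. Without DKO 1, members with a start-site peak in the DKO group numbered 6 in place of 3, and those without a control peak 5 in place of 2. The additions were Notch1, Dll1 and Chga, each called in DKO 2 alone at a rank of 30.8 or less. The 2 members called in both DKO libraries alone became 1 with peaks cut to their central 200 bp, where the Hes1 region no longer reached within 1 kb of the start. They also became 1 at equal list length, where the Muc2 start was called in DKO 1 alone, and with an offset found over 2 Mb, which failed at Hes1.

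The genes around the members in the pathway were read at their start sites from a list of 67, of which 49 could be placed: 28 of 33 Notch pathway genes and 21 of 34 secretory lineage genes. Of the 49, 20 had a start-site peak in the control, 21 in DKO 1 and 25 in DKO 2, and 19 had one in all 3. These shares, 40.8%, 42.9%, 51.0% and 38.8%, stood beside 43.9%, 50.1%, 51.9% and 39.9% of all placed genes, near the background. None was called in the control alone, beside 1.46% of all genes. Notch2, another receptor, had a peak in both DKO libraries alone at ranks of 70.2 and 30.8. So did Psenen, a subunit of the gamma-secretase that cleaves Notch, at 46.1 and 54.7. These are 2 of 49 genes, 4.08%, beside 7.18% of all placed genes. Without DKO 1 the count was 5, the additions being Dll4, Rfng and Cck, called in DKO 2 alone at ranks of 44.1, 47.9 and 9.0.

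Among the 19 list genes with a start-site peak in all 3 libraries, 2 were lower in the control by at least 25 points against both DKO libraries, beside 11.9% of 6085 such genes in the series, and 0 were higher, beside 1.45%. One was Pofut1, the enzyme that adds O-fucose to Notch receptors, at ranks of 45.5 in the control, 80.0 in DKO 1 and 71.8 in DKO 2. The other was Chgb, the chromogranin partner of the member Chga, at 22.8, 80.0 and 65.4. The control minus DKO mean was −30.4 points at Pofut1 and −49.9 at Chgb. By the rule the control lay below both DKO values at each gene, and these were closer to each other than to it. The median difference over the 19 was −3.8 points, beside −5.9 over all such genes.

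Other parts of the pathway were called at high rank in all 3 libraries. The ligand Jag1 stood at 95.6, 91.5 and 98.1 in the control and DKO 1 and DKO 2. Rbpj, the DNA-binding partner of the Notch fragment, stood at 90.2, 92.6 and 94.6, and the Notch target Hey2 at 96.0, 97.5 and 98.8. By group, start-site peaks were called in 2, 1 and 3 of 4 further ligands, in 0, 1 and 1 of 3 further receptors, and in 3, 3 and 3 of 6 further targets, in the order of control, DKO 1 and DKO 2. The 6 placed genes of the proteases that cut the receptor, subunits included, had 5, 6 and 6. The 4 genes of the nuclear complex, Rbpj included, had 2, 2 and 2. The 5 placed modifiers, such as Pofut1, had 3, 3 and 4. Over all placed genes the shares with a start-site peak were 43.9%, 50.1% and 51.9%.

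Secretory lineage genes other than the members were mostly without a start-site peak. Peaks were called in 5, 5 and 6 of the 21 placed genes, and 15 (71.4%) had none in any library, beside 43.6% of all placed genes. The 5 called in all 3 libraries were Foxa3, Klf4, Isl1, Chgb and Xbp1. Foxa3, a goblet cell factor, stood at 62.4 in the control, 89.6 in DKO 1 and 83.3 in DKO 2. Klf4, another goblet cell factor, stood at 74.2, 83.6 and 88.8, and Xbp1, which expands the secretory apparatus, at 54.8, 73.9 and 69.8. Isl1, an enteroendocrine factor, stood at 71.6, 68.1 and 79.8. The control was below both DKO libraries at Foxa3, Klf4 and Xbp1 without reaching 25 points against both at any of them, and within their range at Isl1. No placed Paneth gene (Lyz1 and Mmp7) or tuft gene (Dclk1, Trpm5 and Gfi1b) had a peak.

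Atoh1, as the member with a start-site peak in all 3 libraries, was set beside the 19 list genes called in all 3. No gene outside the list was compared, so the nearest had to be a list gene. The nearest in rank was Nrarp, a Notch target that feeds back on the pathway, at 50.4, 58.6 and 63.0, with a mean absolute difference of 7.8 points over 3 libraries. DKO 1 ranked above DKO 2 at Atoh1 and below it at Nrarp.

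**Figure D4:**
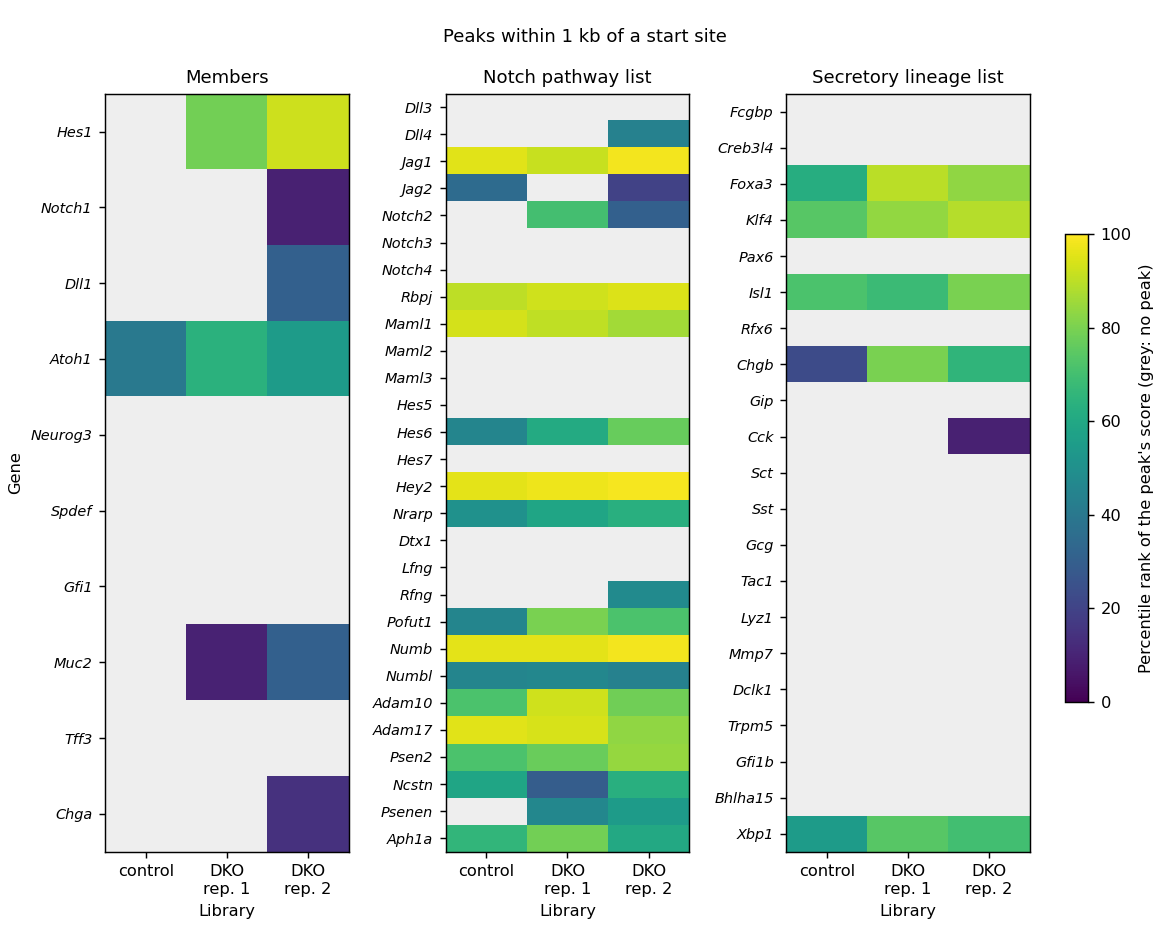
Percentile rank of the start-site peak (colour; grey, no peak within 1 kb) in the 3 libraries for the 10 members, 28 Notch pathway genes and 21 secretory lineage genes. Among the members the control column has colour at Atoh1 alone (40.3), and in the secretory panel 15 of 21 genes are grey in all 3 columns.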

How the data were processed

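Each library came with a peak list deposited by the authors, giving a position, a name and a score per peak. Per the submitters' processing notes the build was mm9 and the tools included FastQC 0.11.3, Bowtie2 2.2.6, deepTools 2.4.2 and MACS 1.4.1. Their roles and parameters, the handling of duplicates, any Tn5 shift and the meaning of the deposited score are not given in the sources used here. Depth is therefore unknown, and a longer list may hold weaker peaks.

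RefSeq genes (GRCm38) were moved to mm9 by the offset within 8 Mb that brought most peaks within 300 bp of start sites over 5 Mb. An offset was accepted when it gave at least 2 times the pairs of the next best, or at least 1.5 times and within 1 kb of that of 1 of the 10 nearest accepted genes. This placed 15247 of 17493 protein-coding genes with a start site in the table. Distances are estimates, and those to Hes1 and Tff3 use their strand from general knowledge. Tied scores share a mean rank. In regions with several peaks of a library, the highest was used. Merging, region classes and the offset search were tested on simulated data, and the percentile ranks were not (Python 3.11.15, pandas 2.3.3, numpy 2.4.6). No test was run. All 10 members are named, with every list gene called in both DKO libraries alone, in the control alone, or shifted by 25 points. Members, lists and rules were chosen with earlier results of these data known. Alternatives covered list length, score threshold, merging, flank, start distance, shift size, offset stretch and each DKO replicate.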

Additional observations from a re-analysis of the deposited data

How the results depend on the processing

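Counts in the windows changed with list length and window width. The members' share of DKO-only regions was below that of all regions at the settings used (13.5% beside 16.0%). It was above it at scores at or above the library median (29.4% beside 16.6%) and with flanks of 10 kb (30.8%). At the median threshold it includes Atoh1 −1.1 and +14.0 kb and Gfi1 +36.1 kb, whose control peaks the threshold removed. The members' control-only share, 8.11% beside 13.0%, was 15.6% with flanks of 100 kb and 14.3% with the offset over 2 Mb. The rank differences at Atoh1 +14.0 kb and Gfi1 +36.1 kb kept their sign wherever they could be computed. The 37 regions became 22 at equal list length (16977 peaks), 17 with scores at or above the library median, 13 with flanks of 10 kb and 64 with flanks of 100 kb, and lay between 22 and 36 without 1 DKO replicate. The 11 shared regions became 3, 19 and 4 with flanks of 10 kb, flanks of 100 kb and scores at or above the median. The 5 DKO-only regions became 3 at equal list length, 8 with flanks of 100 kb and 3 with an offset over 2 Mb, which failed at Hes1 and Atoh1 (13 against 12 and 8 against 7 pairs for the next best), and ranged from 6 to 20 without 1 replicate. The 3 control-only regions became 1 and 10 with flanks of 10 and 100 kb. At scores at or above the median, 2 of the 5 DKO-only regions and 1 of the 3 control-only regions kept their class. The 2 regions lower in the control became 0 with flanks of 10 kb or scores at or above the median. The 0 regions higher in the control became 1 at equal list length and 1 without either replicate. Atoh1 +14.0 kb ranged from −46.7 to −75.6 and Gfi1 +36.1 kb from −28.9 to −47.5 points over the alternatives that gave a value. The 1 member with a control start-site peak became 0 at scores at or above the median, and the 3 with one in both DKO libraries became 6 without replicate 1. The 2 DKO-only list genes became 1 at equal list length, 4 within 2 kb of the start and 5 without replicate 1. Where the alternative does not itself remove peaks, libraries or windows, the cause was not tested. Of 63 other values, 21 moved. No paired analysis was possible because a single control library, with no replicate number in its labels, leaves nothing to pair.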
